A study of Homo sapiens with 8 samples.

Results

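Translation efficiency, the level of ribosome footprints of a gene relative to the level of its RNA, was compared between cells that overexpressed QKI7 and cells with an empty vector. The comparison used 1306 genes, 4.85% of the 26902 rows of the deposited table. A row entered when its TPM averaged 1 or more in the 4 inputs and 0.5 or more in the 4 footprint libraries, provided it did not belong to the spike-ins, small nucleolar and Cajal body RNAs, microRNA precursors, spliceosomal RNAs, signal recognition particle RNAs or ribosomal RNAs. TPM is a share of a library corrected for transcript length.

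All cells were U2OS, an established human osteosarcoma line, and every group, controls included, received sodium arsenite (0.5 mM, 1 h) before harvest. Each construct, vector or QKI7, had 2 input libraries and 2 footprint libraries. Inputs were total RNA depleted of ribosomal RNA, and footprints were RNA fragments of 17 to 34 nt recovered with ribosomes. Cells without arsenite and the level of QKI7 protein were not analysed here. No label ties a library to a culture of its own, and the spread behind each p-value is that between libraries, possibly technical only.

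Ribosome profiling reads the short stretch of mRNA that a ribosome shields from nuclease, so the footprint level of a gene rises with both its RNA level and the number of ribosomes on each RNA, and dividing by the RNA level leaves the second. QKI belongs to the STAR family of proteins that bind RNA, with isoforms that share the RNA-binding domain and differ at the carboxy terminus, and is known for roles in splicing, RNA stability and translation. Arsenite causes oxidative stress, which lowers translation initiation and gathers stalled mRNAs with RNA-binding proteins into stress granules.

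Values below are rescaled TPM: each library was scaled so that the 1306 genes sum to 1000000. Changes are differences of log2(rescaled TPM + 1) between QKI7 and vector, and the change of translation efficiency is the footprint change minus the input change. A gene was called at an adjusted p under 0.05 over all 1306 genes. Replicate libraries correlated across genes, which are not independent of each other, at Pearson r from 0.984 to 0.992. The genes used held 1.88% to 2.07% of the deposited TPM of each input. They held 0.638% and 0.64% of the vector footprint libraries and 0.565% and 0.569% of the QKI7 footprint libraries. TPM keep no depth, and how many reads a value rests on is unknown. Of 15 mesenchymal and osteoblast markers, 10 reached a mean input of 1 TPM, with summed levels of 166.90 to 171.56 in vector and 156.26 to 167.85 in QKI7 inputs. Of 9 epithelial markers KRT8 and KRT18 did (sums of 44.50 to 45.04 and 36.99 to 40.76), and no blood or neural marker did (0.46 to 0.96 and 0.28 to 0.29 for 8 blood markers, 1.66 to 1.73 and 1.79 to 2.04 for 7 neural markers). No marker was at 0 in all inputs, and their part in the results was not tested. Fewer cells of a type and less RNA per cell cannot be told apart in such bulk samples.

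Translation efficiency was higher with QKI7 for 154 genes (11.8%) and lower for 77 (5.90%). Among the genes called higher, 87 had more footprints with an input change that was not called, 33 had less input RNA with a footprint change that was not called, and 14 had both more footprints and less input RNA. Among the genes called lower, 55 had fewer footprints with an input change that was not called and 10 had more input RNA with a footprint change that was not called. The median change of the genes called higher was 0.795, made of -0.180 in inputs and 0.628 in footprints. The median of the genes called lower was -0.707, made of 0.170 in inputs and -0.502 in footprints. The 4 differences of footprint and input did not overlap between constructs for any called gene, but this was so for 384 (29.4%) of all genes on the higher side and 413 (31.6%) on the lower side as well. In the same fit, input RNA was higher for 57 genes (4.36%) and lower for 163 (12.5%), and footprints were higher for 177 (13.6%) and lower for 263 (20.1%). The smallest p of an exact two-sided permutation test of 2 against 2 is 0.333, and the calls therefore draw on limma's pooling of variance across genes.

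**Figure D1:**
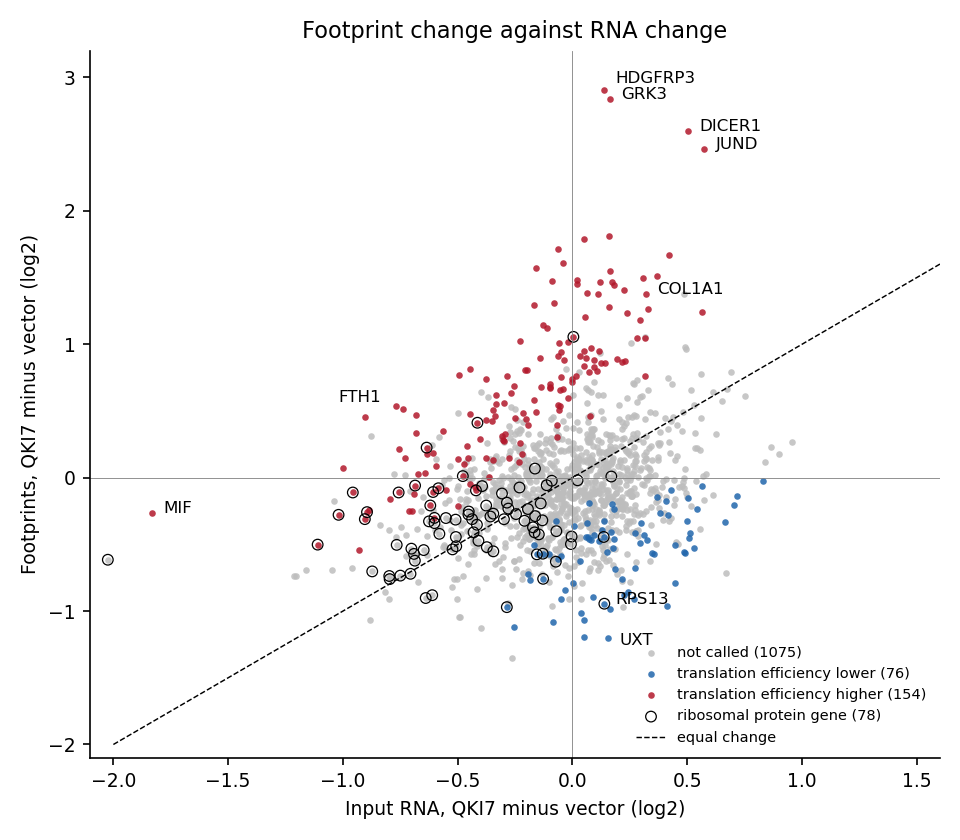
Change of footprints against change of input RNA, QKI7 minus vector, both in log2; each point is a gene, filled by its translation efficiency call (red for 154 higher genes, blue for lower genes), and rings mark the 78 ribosomal protein genes. Points above the dashed line of equal change have a higher translation efficiency with QKI7; QKI itself lies outside the axes.

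The balance of higher and lower calls followed the scaling. The QKI row alone held 8.43% and 7.96% of the rescaled QKI7 inputs against 0.016% and 0.0174% of the vector inputs, so every other gene of the QKI7 inputs has a smaller share of the sum. The genes used also held a smaller part of the deposited TPM in QKI7 footprints than in vector footprints. Rescaling to equal sums therefore raised QKI7 footprint values relative to vector footprint values. How much each of these moved the balance was not tested. With QKI left out of the sums, 122 genes were called higher and 165 lower, and the median over all genes went from -0.025 to -0.141. The 122 were all among the 154 called higher with QKI in the sum, and the 77 called lower were all among the 165. Sums over all rows left after the dropped RNA classes gave 119 and 174 (median -0.153), and deposited TPM without rescaling gave 75 and 297 (median -0.174). On deposited TPM, here and below, the 1 added before taking logs also weighs more. Median levels of the genes used were 1.03 to 1.24 TPM in footprints and 4.95 to 5.49 TPM in inputs. At these levels footprint changes are shrunk more than input changes, and this was not separated from the scaling. Median-of-ratios scaling gave 182 and 60 (median 0.032), and protein-coding genes without histones gave 228 and 50 of 1225 genes (median 0.085). Counts and medians of gene lists under another setting, given below, stand beside these values over all genes. The shares of 11.8% higher and 5.90% lower belong to the main fit only. Counts in both directions were also smaller in each fit without 1 input library. Such a fit leaves 1 library in its group and has less to judge the spread by, so a lost call alone does not show that the change rests on that library.

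QKI, the overexpressed gene (chr6:163414718-163578592, GRCh38), had the lowest change. Its rescaled input level was 160.5 and 174 in the vector libraries and 84299 and 79623 in the QKI7 libraries, and its footprint level was 89.3 and 103 in vector and 4777 and 4930.5 in QKI7. All QKI7 libraries were above all vector libraries of their type, but the rise was larger in RNA (log2 change 8.93) than in footprints (5.65). The translation efficiency of the QKI row was 3.29 lower on the log2 scale (change -3.29, SE 0.11, adjusted p = 1.03e-06) and was called in every alternative fit. Per-gene values do not separate the construct from the cell's own QKI transcripts. Of 5 STAR family genes listed 3 were used, QKI among them, and no other of those used was called.

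The largest rises outside QKI were footprint rises over nearly level RNA. HDGFRP3 (now HDGFL3, a protein of the hepatoma-derived growth factor family; chr15:83112738-83207823) had rescaled inputs of 152 and 148 in vector and 173 and 158 in QKI7. Its footprints were 95.6 and 120.4 in vector and 867 and 761 in QKI7. The footprint groups lay far apart while the input groups were close, and translation efficiency was 6.83-fold higher (log2 change 2.77, SE 0.20, adjusted p = 9.59e-05). GRK3, a kinase that desensitises G protein-coupled receptors (chr22:25564675-25729294), had inputs of 58.6 and 66.4 against 69.4 and 70.6, and footprints of 578 and 499 against 4460.1 and 3309. Its change was 2.67 (SE 0.21, adjusted p = 0.000153).

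DICER1, the endonuclease that cuts microRNA precursors (chr14:95086228-95158010), was higher in both library types. Its rescaled inputs were 117 and 125 in vector and 176 and 166 in QKI7, and its footprints were 1939.6 and 1768 in vector and 11662 and 10841 in QKI7. The groups did not overlap in either type, and translation efficiency was 4.29-fold higher (log2 change 2.10, SE 0.11, adjusted p = 2.04e-05). For GRK3 and DICER1 the footprint level stood far above the input level in both constructs, and per-gene values do not show where along a transcript the fragments lie. RELN, named here with its values known, was too low in inputs to be used, at 0.02 to 0.04 TPM. Its deposited footprint values were 87.21 and 95.06 TPM in vector and 637.72 and 637.31 TPM in QKI7. What these fragments are was not tested. No other of the 13 DICER and Argonaute pathway genes listed was abundant enough to be used. HDGFRP3, GRK3 and DICER1 were each called without any of the 8 libraries.

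YME1L1, a protease of the mitochondrial inner membrane (chr10:27110111-27154384), had inputs of 217 and 209 in vector and 236 and 240.4 in QKI7, and footprints of 116 and 144 in vector and 446 and 464 in QKI7 (translation efficiency change 1.65, SE 0.17, adjusted p = 0.000602). MTA1, a subunit of the NuRD chromatin remodelling complex (chr14:105419827-105470729), had footprints of 116 and 116 against 386 and 327 with inputs of 283 and 282 against 264 and 286 (change 1.65, SE 0.16, adjusted p = 0.000582). SCRIB, a scaffold of epithelial polarity, changed by 1.46 (adjusted p = 9.59e-05), with footprints of 83 and 81.3 against 241 and 221. B4GALT2, a galactosyltransferase, changed by 1.39 (adjusted p = 0.00377), with footprints of 171 and 242 against 518 and 496. In all 4 genes the QKI7 footprints lay above the vector footprints, input changes were not called, and the call stood without any single library.

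Several other genes of the 15 highest changes reached the footprint minimum only through the QKI7 libraries, so that a higher value in QKI7 was part of how they came to be tested. TNRC18 (chr7:5306811-5423834) had footprints of 54.8 and 54.7 in vector and 152 and 151 in QKI7 (change 1.43, adjusted p = 9.59e-05). GID8, a subunit of the CTLH ubiquitin ligase (change 1.78, adjusted p = 0.0021), FBRSL1 (1.74, adjusted p = 0.00148), RNF220, a ubiquitin ligase (1.73, adjusted p = 0.011), and CLASRP, a regulator of splicing (1.56, adjusted p = 0.00263), were called in every fit that left out 1 library and still tested them. JUND, a subunit of the AP-1 transcription factor, went from footprints of 18.8 and 42.2 to 150.4 and 170.4 (change 1.89, adjusted p = 0.0196). TAF10, a subunit of the general transcription factor TFIID, changed by 1.46 (adjusted p = 0.0457). JUND was not called without vector input replicate 1 (adjusted p = 0.0771), vector input replicate 2 (0.0506) or QKI7 input replicate 1 (0.0549), and on deposited TPM its change was 0.12. TAF10 was not called without vector input replicate 1 (0.119), vector input replicate 2 (0.117), vector footprint replicate 1 (0.0837) or QKI7 input replicate 2 (0.125). Of the 154 genes called higher, 31 passed the minimum only through QKI7 footprints, as did 47 of all 1306 genes. Of the 77 called lower, 6 passed only through vector footprints, as did 96 of all genes. With both minima required in each construct, 121 of 1133 genes were called higher and 75 lower.

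MIF, a cytokine (chr22:23894383-23895223), differed from these because its RNA moved. Its inputs were 132 and 149 in vector and 27 and 55.4 in QKI7, while its footprints were 2595 and 2792 against 2420.2 and 2073. The input fell by 1.83 on the log2 scale (adjusted p = 0.00216), the footprint change of -0.26 was not called (adjusted p = 0.475), and translation efficiency changed by 1.57 (SE 0.38, adjusted p = 0.0226). MIF reached the input minimum only through the vector libraries. The call was lost without vector input replicate 1 (adjusted p = 0.0598), vector input replicate 2 (0.0806), vector footprint replicate 1 (0.0614) or QKI7 footprint replicate 1 (0.0748).

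**Figure D2:**
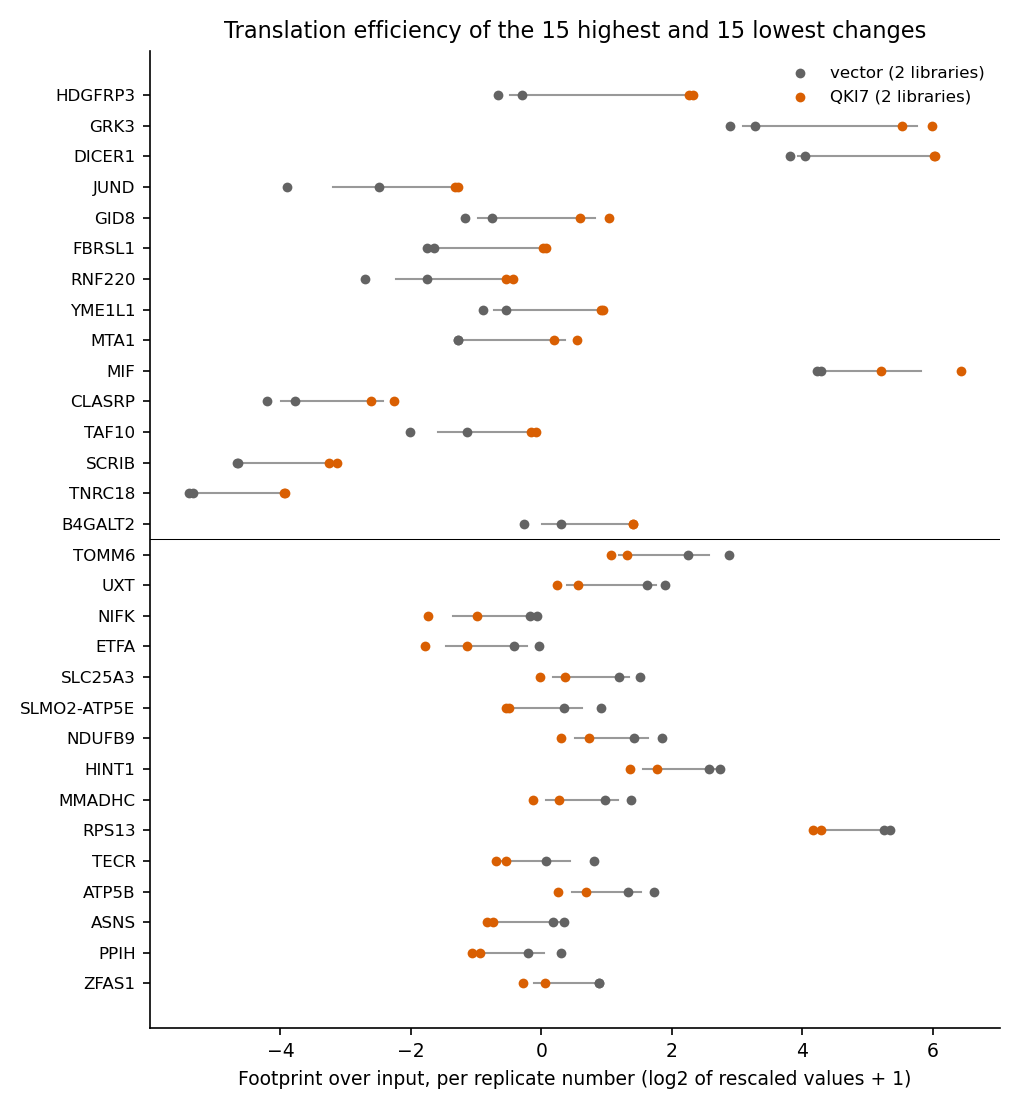
Footprint over input (log2 of rescaled values + 1) for the 15 genes with the highest and the 15 with the lowest change after QKI; each dot is a footprint library minus the input library of the same replicate number, grey for vector and orange for QKI7, and the line joins the group means. In all 30 genes the dots of the constructs do not overlap, which was part of how they were chosen.

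The 15 largest falls after QKI ranged from TOMM6 to ZFAS1. TOMM6, a subunit of the protein import pore of the outer mitochondrial membrane (chr6:41787694-41789895), had inputs of 69.8 and 48.8 in vector and 86.8 and 70.1 in QKI7, and footprints of 335 and 366 in vector and 182 and 176 in QKI7. Its change was -1.38 (SE 0.27, adjusted p = 0.0111). UXT, a prefoldin-like protein (chrX:47651796-47659180), had footprints of 323 and 261 against 117 and 135 with inputs of 86.4 and 84 against 98.3 and 91.7 (change -1.36, SE 0.22, adjusted p = 0.00432). MMADHC, which handles vitamin B12 inside the cell, changed by -1.10 (adjusted p = 0.0132), and PPIH, a cyclophilin of the spliceosome, by -1.05 (adjusted p = 0.00606). In these genes the vector footprints lay above the QKI7 footprints, and the call stood without any single library.

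Calls of the other genes among the 15 lowest, apart from RPS13 and ASNS described below, were lost in at least 1 fit that left out a library. Their changes in such fits kept their sign, from -1.59 (NIFK) to -0.82 (SLMO2-ATP5E and ZFAS1). SLC25A3, the mitochondrial phosphate carrier (change -1.17, adjusted p = 0.0144), and HINT1, a nucleotide hydrolase (-1.10, adjusted p = 0.015), were not called without vector input replicate 2 (adjusted p = 0.0524 and 0.0532). ATP5B (now ATP5F1B), the catalytic subunit of ATP synthase (-1.06, adjusted p = 0.0144), was not called without vector input replicate 2 (0.0545) or QKI7 input replicate 2 (0.0543). NDUFB9, of respiratory complex I (-1.12, adjusted p = 0.0128), and ZFAS1, a snoRNA host transcript with footprints of 252 and 261 against 136 and 107 (adjusted p = 0.0128), were not called without vector input replicate 1 (0.0527 and 0.0509). NIFK, ETFA and TECR passed the footprint minimum only through the vector libraries. NIFK (-1.25) lost its call in 5 such fits and ETFA (-1.24) in 3: both without vector input replicate 1 (0.074 and 0.0663), vector input replicate 2 (0.079 and 0.0622) and QKI7 input replicate 1 (0.0717 and 0.0698), and NIFK also without vector footprint replicate 1 (0.0624) and QKI7 input replicate 2 (0.0575). TECR (-1.06) stayed called only without vector footprint replicate 2, with adjusted p from 0.0572 to 0.119 in the other fits. SLMO2-ATP5E (-1.15), a readthrough transcript that overlaps ATP5E and whose reads may be split with it, was called only without vector input replicate 1.

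**Figure D3:**
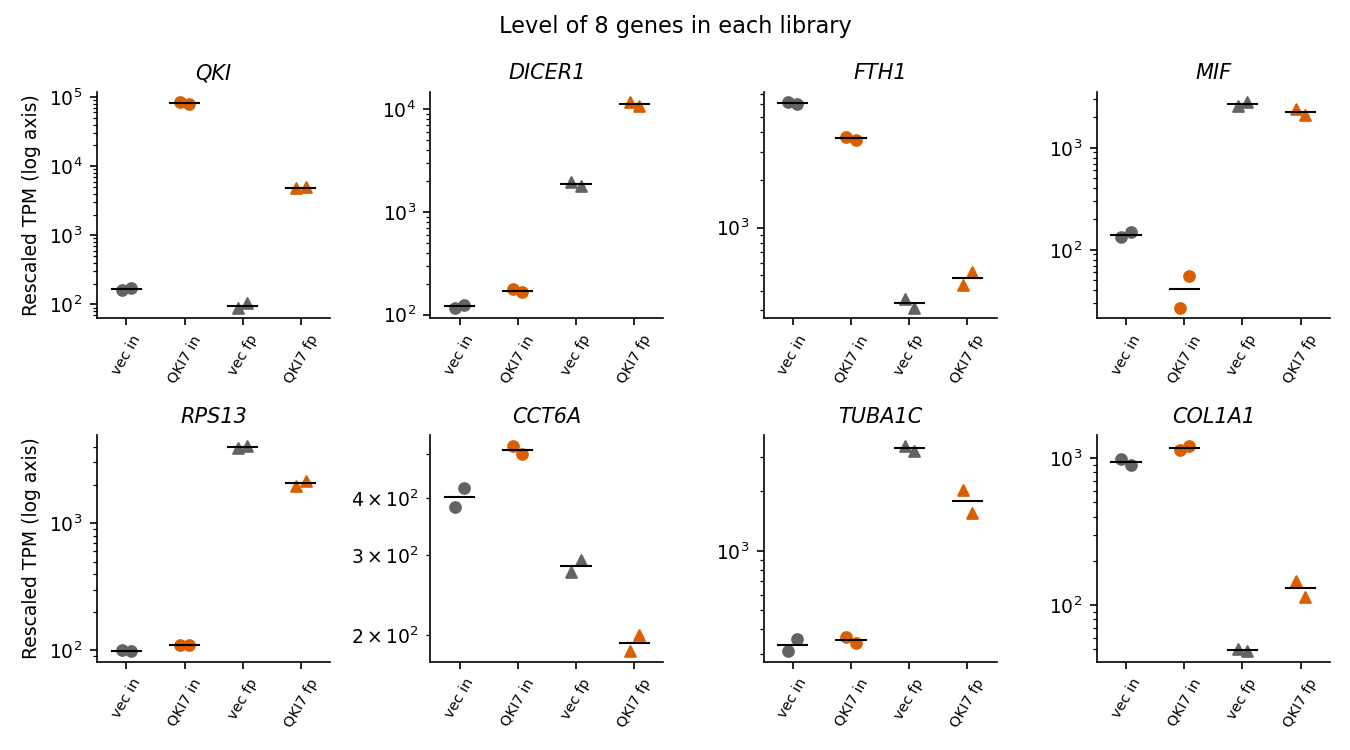
Rescaled TPM (log axis, different range in each panel) of 8 genes in each of the 8 libraries; circles are inputs, triangles footprints, grey vector and orange QKI7, and the bar is the group mean. QKI rises more in inputs than in footprints, DICER1 and COL1A1 rise mainly in footprints, FTH1 and MIF fall in inputs, and RPS13, CCT6A and TUBA1C fall in footprints.

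Ribosomal protein mRNAs were a mixed group. Many of them begin with a terminal oligopyrimidine tract (TOP), a C followed by pyrimidines that lets growth signals switch their translation together. Of 83 ribosomal protein genes listed, 78 were used, of which 16 rose and 6 fell in translation efficiency (11.8% and 5.90% of all genes). Their median change was 0.07, against -0.025 over all genes. The sign of that median followed the scaling, at -0.05 with sums without QKI and -0.15 on deposited TPM. Relative to the median of all genes in the same fit it moved less. It was 0.09 in the main fit, 0.09 with sums without QKI and 0.02 on deposited TPM. On deposited TPM 9 rose and 19 fell, against 75 higher and 297 lower of all 1306 genes. In inputs 48 fell and 0 rose at the adjusted threshold (12.5% and 4.36% of all genes), with a median of -0.418. In footprints 52 fell and 3 rose (20.1% and 13.6% of all genes), with a median of -0.322. Leaving out vector input replicate 1 left 8 higher and 2 lower. Of the other fits, 10 were higher without QKI7 input replicate 2, and 3 were lower without vector input replicate 2, either vector footprint library or QKI7 footprint replicate 1.

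The starts of 9 of the 12 named ribosomal protein and other TOP genes are shown because rises and falls both occurred within this class; RPS2, RPL23A and EIF3E are not shown. Each is 30 bases of the RefSeq transcript strand (build GRCh38.p14), 10 before and 20 from the annotated start, and capitals mark the longest unbroken run of C and T that begins with C within 5 bases of the start and holds at least 4 more pyrimidines.
RPS13 (lower, chr11:17077648-17077677, minus strand): ctctcgCTCTCCTTTCgttgcctgatcgcc
RPL27A (lower, chr11:8682782-8682811, plus strand): gaaggCCTTCCTTTTTCgtctgggctgcca
TPT1 (lower, chr13:45341164-45341193, minus strand): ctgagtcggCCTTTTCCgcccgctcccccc
EEF1G (lower, chr11:62573872-62573901, minus strand): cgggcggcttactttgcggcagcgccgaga
GAS5 (lower, chr1:173869026-173869055, minus strand): tcatgaattcagatgtgtttattttggagc
RPL38 (higher, chr17:74203668-74203697, plus strand): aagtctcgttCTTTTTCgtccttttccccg
RPL13A (higher, chr19:49487598-49487627, plus strand): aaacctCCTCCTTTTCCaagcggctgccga
RPS26 (higher, chr12:56041908-56041937, plus strand): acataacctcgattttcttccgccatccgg
RPS15 (higher, chr19:1438386-1438415, plus strand): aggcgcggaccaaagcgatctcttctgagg
A run by this rule, searched on the transcript strand only, was in 7408 of 35116 RefSeq start windows (21.1%), in 314 of the 1041 genes used that have a window (30.2%) and in 50 of 62 ribosomal protein genes (80.6%). Among ribosomal protein genes it was in 8 of 11 whose translation efficiency rose, 6 of 6 whose translation efficiency fell and 36 of 45 not called (80%). Both higher and lower genes thus held the run, and its absence from the annotated start of RPS26, RPS15, EEF1G and GAS5 says only that these letters are not there.

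RPS13, a core protein of the small subunit whose start is printed above, had inputs of 101 and 98.6 in vector and 109.9 and 110.4 in QKI7, and footprints of 3908 and 4059 in vector and 1978 and 2163 in QKI7. Footprint groups did not overlap and inputs were close, and translation efficiency was 2.12-fold lower (log2 change -1.08, SE 0.11, adjusted p = 0.000582). RPL27A fell less, with footprints of 335 and 355 against 198 and 209 (change -0.63, adjusted p = 0.036). Its call was lost in 6 of 8 fits that left out a library, with adjusted p from 0.0564 to 0.119, and stood only without vector input replicate 2 or QKI7 footprint replicate 2. RPS2 (chr16:1962058-1964826) moved the other way through its footprints, which were 812 and 872 in vector and 1836 and 1668 in QKI7 at inputs of 1167 and 1103 against 1106 and 1170.2 (change 1.05, SE 0.11, adjusted p = 0.000582).

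In other ribosomal protein genes with a higher translation efficiency, RNA fell more than footprints. RPL38 had inputs of 10703 and 11381 in vector and 5339.9 and 5554 in QKI7, and footprints of 19249 and 18779 in vector and 15480.0 and 15872 in QKI7. Both types fell, inputs by 1.02 and footprints by 0.28 on the log2 scale, which left a translation efficiency change of 0.74 (adjusted p = 0.000582). RPS15 fell by 0.96 in inputs (2867 and 3084 against 1608 and 1458) with footprints that were not called (adjusted p = 0.323), a translation efficiency change of 0.85 (adjusted p = 0.00187). RPS26 fell by 0.64 in inputs and rose in footprints, a change of 0.86 (adjusted p = 0.000784), and RPL23A by 0.65 (adjusted p = 0.00129). RPL13A changed by 0.83 (adjusted p = 0.0183), but not without vector input replicate 1 (0.0771), QKI7 input replicate 1 (0.0508) or QKI7 input replicate 2 (0.0508). Ribosomal protein genes have many processed copies in the genome, and how reads shared with them were assigned is not stated. RPL13AP5, a transcribed pseudogene of RPL13A, moved from inputs of 5661 and 5305 to 2719 and 3048. RPL36A, which had the highest value of the class at 1.41, was not called (adjusted p = 0.0674).

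The list of 20 other TOP RNAs includes elongation factor mRNAs and the non-coding GAS5. Of these, VIM rose and GAS5, TPT1, EIF3E, EEF1G and EEF1A1 fell (11.8% of all genes were higher and 5.90% lower), with a median of -0.03. The balance turned with the scaling, at 3 higher and 2 lower with median of ratios, 6 and 1 among protein-coding genes and 0 and 7 on deposited TPM. Over all genes the counts were 182 and 60, 228 and 50, and 75 and 297 in the same order. VIM, the intermediate filament vimentin (0.35, adjusted p = 0.0222), was not called without either vector input library (0.078 and 0.0577), vector footprint replicate 2 (0.0587) or QKI7 input replicate 2 (0.0848). TPT1, the translationally controlled tumour protein, had inputs of 414 and 414 in vector and 520.1 and 519 in QKI7, and footprints of 191 and 213 against 145 and 146 (change -0.79, SE 0.14, adjusted p = 0.00515). GAS5, a snoRNA host transcript known to be bound by ribosomes without a known protein product, had footprints of 566 and 582 against 290.1 and 319.8 at inputs of 329.5 and 370.2 against 326 and 349.8 (change -0.86, adjusted p = 0.00404). TPT1 and GAS5 stood without any single library. EEF1G (-0.37, adjusted p = 0.0311) and EIF3E (-0.52, adjusted p = 0.0368) each stood in 2 of 8 such fits, with adjusted p from 0.0556 to 0.102 for EEF1G in the others, all but those without vector footprint replicate 2 or QKI7 footprint replicate 2, and from 0.0532 to 0.115 for EIF3E, all but those without vector input replicate 2 or QKI7 footprint replicate 1. The count of lower members was 2 or 3 in every fit without 1 library except that without QKI7 footprint replicate 2, in which 3 were higher.

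Of 36 translation factors 3 were higher and 4 lower (11.8% and 5.90% of all genes), with a median of 0.00. The counts were 2 and 9 on deposited TPM, 6 and 1 with median of ratios and 9 and 1 among protein-coding genes. Over all genes they were 75 and 297, 182 and 60, and 228 and 50 in the same order. EIF3J, a loosely bound subunit of initiation factor 3 (chr15:44537147-44562803), had inputs of 834 and 834 in vector and 798 and 802 in QKI7, and footprints of 138 and 138 in vector and 274 and 281 in QKI7 (change 1.07, SE 0.11, adjusted p = 0.000582). EIF3B, a core subunit of the same complex, had footprints of 235 and 267 against 372 and 343 (change 0.85, adjusted p = 0.00187). EIF1, which guards start codon choice and whose own mRNA is regulated through its start codon context, had footprints of 1739 and 1618 against 909 and 1067 at inputs of 674 and 670.0 against 588 and 596 (change -0.58, SE 0.12, adjusted p = 0.0129). Groups did not overlap in the footprints of any of the 3 genes, and each was called without any single library. The other calls of this list were EIF4G1 (0.49) among the higher and EIF3E, EEF1G and EEF1A1 among the lower. EIF4G1 was not called without vector input replicate 1 (adjusted p = 0.0633), vector input replicate 2 (0.0622) or QKI7 input replicate 1 (0.0909). The count of lower members was 1 or 2 without any library but QKI7 footprint replicate 2, and 6 were higher without that library.

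Of 13 used genes of the chaperonin TRiC/CCT, the ring that folds actin and tubulin, and its cofactor prefoldin, 5 fell (CCT6A, CCT4, CCT2, CCT8 and CCT5) and PFDN2 rose, against 5.90% lower and 11.8% higher of all genes. The median change was -0.53, against -0.025 over all genes, and was between -0.65 and -0.41 under the 6 other scalings and gene sets compared. Relative to the median of all genes in the same fit it was -0.50 in the main fit and smaller, -0.25, on deposited TPM. Under the remaining settings it was -0.50 to -0.43. CCT6A (chr7:56051765-56063989) had inputs of 383 and 422 in vector and 523 and 500.4 in QKI7, and footprints of 276 and 292 in vector and 184 and 200.3 in QKI7. RNA was higher and footprints lower in both QKI7 libraries, a change of -0.91 (SE 0.14, adjusted p = 0.00328). CCT4 had inputs of 229 and 214 against 279 and 265 and footprints of 310.2 and 324 against 218 and 234 (change -0.78, SE 0.14, adjusted p = 0.00711). CCT2 changed by -0.69 (adjusted p = 0.0138), lost without vector input replicate 2 (0.0527) or QKI7 input replicate 1 (0.0671). CCT8 changed by -0.53 (adjusted p = 0.0251) and was not called without either vector input library (0.0605 and 0.0842), vector footprint replicate 2 (0.0552), QKI7 input replicate 1 (0.106) or QKI7 footprint replicate 1 (0.0544). The count of lower members was 3 without vector input replicate 1 or vector footprint replicate 2 and 2 without vector input replicate 2 or QKI7 input replicate 1.

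Tubulin mRNAs encode well known clients of that chaperonin. All 4 used genes had changes below the median of all genes, and 2 of them, TUBA1C and TUBA1B, were called lower (5.90% of all genes). TUBA1C (chr12:49227926-49274600) had inputs of 310.3 and 356 in vector and 367 and 342 in QKI7, and footprints of 3399.9 and 3206 in vector and 2042 and 1546 in QKI7 (change -0.98, SE 0.18, adjusted p = 0.00711). TUBA1B had footprints of 4769 and 5161 against 2472 and 3107 at inputs of 374 and 325 against 335 and 346 (change -0.81, SE 0.16, adjusted p = 0.0111). In both genes the inputs overlapped and the footprints did not, and both calls stood without any single library. The 2 genes are close in sequence, so reads they share may have been split between them. The list median was -0.52, and -0.67 to -0.40 under the other scalings. Relative to the median of all genes in the same fit it was -0.49, and -0.50 to -0.47 under the other scalings.

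Heat shock chaperones had a median of -0.29 (-0.42 to -0.17 under the other scalings). Relative to the median of all genes in the same fit it was -0.27, and -0.29 to -0.22 under the other scalings. Of 16 used, 2 were higher and 4 lower (11.8% and 5.90% of all genes), or 1 and 8 on deposited TPM (75 and 297 of all 1306 genes). HSPA1A, the stress-induced form of HSP70 (chr6:31815543-31817942), had inputs of 18482 and 18661 in vector and 23319 and 22950.0 in QKI7, and footprints of 703 and 808 in vector and 1458 and 1662 in QKI7. It was higher in both types, more so in footprints (change 0.73, SE 0.11, adjusted p = 0.00376). HSPA1A has a near-identical neighbour, HSPA1B, so its value is uncertain. HSPB1, a small heat shock protein, was the other member called higher. HSPD1, the mitochondrial chaperonin, had inputs of 1413 and 1438 against 1927 and 1917 with footprints of 537 and 608 against 511 and 564 (change -0.52, adjusted p = 0.0151). HSPA8, the constitutive HSP70, changed by -0.41 (adjusted p = 0.0144), HSPA9, its mitochondrial form, by -0.54 (adjusted p = 0.036), and HSP90AB1 was also lower. HSPD1 and HSPA8 were not called without vector input replicate 1 (adjusted p = 0.059 each) or QKI7 input replicate 1 (0.0508 and 0.0554), fits in which 0 of the 4 lower calls stood. HSPA9 stood only without QKI7 footprint replicate 2.

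Of 25 used genes of the actin cytoskeleton, 9 rose (TMSB10, FLNA, MYH9, TPM1, TPM2, TMSB4X, ACTN1, TAGLN2 and ACTG1) and 2 fell (ARPC3 and PFN1), against 11.8% and 5.90% of all genes. Their median was 0.18. On deposited TPM the median was -0.02, with 4 higher and 4 lower. Relative to the median of all genes in the same fit, these medians were 0.21 and 0.16. FLNA, filamin A, which crosslinks actin filaments (chrX:154348531-154374634), had inputs of 4071 and 3889 in vector and 4309 and 4312 in QKI7, and footprints of 188 and 191 in vector and 347 and 387 in QKI7 (change 0.83, SE 0.10, adjusted p = 0.00103). MYH9, the heavy chain of non-muscle myosin, had footprints of 199 and 216 against 313 and 353 at inputs of 6143 and 6240.0 against 5598 and 5648 (change 0.82, SE 0.11, adjusted p = 0.0015). TMSB10, a thymosin that binds actin monomers, rose in translation efficiency mainly through a fall of its RNA. Inputs were 14170.0 and 14832 against 8341 and 9154, and footprints 11370.0 and 12204 against 13458 and 12641 (change 0.88, SE 0.09, adjusted p = 0.000602). ARPC3, a subunit of the ARP2/3 complex that starts filament branches, had footprints of 440.3 and 499 against 264 and 323 (change -0.95, SE 0.20, adjusted p = 0.0129). These 4 genes were called without any single library, while the count of higher members was 5 without vector input replicate 2 or QKI7 input replicate 1. The count of lower members was 1 in all such fits but those without a QKI7 footprint library.

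Among 13 extracellular matrix genes 4 rose (COL1A1, LAMB2, COL6A2 and COL4A2) and 0 fell at the adjusted threshold, against 11.8% and 5.90% of all genes. Their median was 0.15, and -0.10 on deposited TPM. Relative to the median of all genes in the same fit, these medians were 0.18 and 0.07. COL1A1, a chain of type I collagen and a marker of the osteoblast lineage (chr17:50184101-50201631), had inputs of 992 and 896 in vector and 1142 and 1214 in QKI7, and footprints of 50.1 and 48.5 in vector and 147 and 114 in QKI7 (change 1.06, SE 0.18, adjusted p = 0.00562). COL4A2, a chain of basement membrane collagen, had footprints of 79.9 and 73.5 against 145 and 142 (change 0.84, SE 0.11, adjusted p = 0.00187). COL6A2 changed by 0.92 (adjusted p = 0.0144), and LAMB2, a laminin chain, by 0.93 (adjusted p = 0.0369). The footprint groups did not overlap in these genes, but their footprints are low, and on deposited TPM the changes were 0.03, 0.16, 0.26 and 0.15 in the same order and none was called. COL1A1 and COL4A2 passed the footprint minimum only through QKI7. COL6A2 was not called without either vector input library (adjusted p = 0.0601 and 0.05), and LAMB2 stood only without vector footprint replicate 1 or QKI7 footprint replicate 2, with adjusted p from 0.0666 to 0.12 in the others. The count of higher members was 2 without vector input replicate 1, vector input replicate 2 or QKI7 footprint replicate 1.

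Of 20 genes of ferritin, metal and oxidative stress, FTH1 and FTL rose and PRDX1 fell, near the shares of all genes (11.8% and 5.90%). On deposited TPM 2 were higher and 6 lower, against 75 and 297 of all 1306 genes. FTH1, the heavy chain of the iron store ferritin (chr11:61964285-61967634), whose translation is known to be held back by iron regulatory proteins at an element in its leader, had inputs of 6190.3 and 6058 in vector and 3748 and 3587 in QKI7, and footprints of 356 and 311 in vector and 433 and 524 in QKI7. RNA fell and footprints rose without overlap, and translation efficiency was 2.39-fold higher (log2 change 1.26, SE 0.14, adjusted p = 0.000689). FTL, the light chain under the same control, had footprints of 367 and 341 against 635 and 506 at inputs of 3682 and 3269.6 against 3292 and 3199 (change 0.78, SE 0.15, adjusted p = 0.011). PRDX1, a peroxidase that removes hydrogen peroxide, had inputs of 285 and 328 against 449 and 419 with footprints of 3893 and 3599 against 3310.1 and 3440.4 (change -0.65, SE 0.12, adjusted p = 0.00703). The 3 genes were called without any single library. FTH1 has many processed copies in the genome, and reads shared with them may have been split.

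Of 12 used stress granule proteins, YBX3, YBX1 and EIF4G1 rose and DDX3X fell (11.8% and 5.90% of all genes). Their median was 0.19, and -0.10 on deposited TPM, where 1 was higher and 3 lower. Relative to the median of all genes in the same fit, these medians were 0.22 and 0.08. YBX3 and YBX1 are cold shock domain proteins that coat mRNA. YBX3 (chr12:10699089-10723323) had inputs of 1797 and 1819 against 1379.6 and 1406 and footprints of 144 and 153 against 264 and 235 (change 1.12, SE 0.12, adjusted p = 0.000598). YBX1 had inputs of 1899 and 2067 against 2031 and 1929 and footprints of 216 and 186 against 318 and 343 (change 0.72, SE 0.13, adjusted p = 0.00703), a call not made on deposited TPM (change 0.26, adjusted p = 0.127). DDX3X, an RNA helicase, changed by -0.64 (adjusted p = 0.0472) and stood only without vector footprint replicate 2. G3BP1, the protein that nucleates stress granules, had inputs of 531 and 573 against 607 and 570.5 and footprints of 316 and 283 against 244 and 251. Its change of -0.37 was not called (adjusted p = 0.0889), but was called at -0.48 with sums without QKI (adjusted p = 0.0347). The 6 mRNAs listed as enriched in stress granules were not abundant enough to be used.

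Arsenite is known to start the integrated stress response. ATF4, whose translation rises through upstream reading frames when initiation falls, had inputs of 2844 and 2746 in vector and 2684 and 2743 in QKI7, and footprints of 2065 and 2007 in vector and 1919.6 and 1868 in QKI7. The change of -0.06 was not called (SE 0.07, adjusted p = 0.6), but was called at -0.28 on deposited TPM (adjusted p = 0.0435). PPP1R15A, the stress-induced subunit of the phosphatase that ends the response, had footprints of 345 and 338 against 317 and 379.5 and a change of 0.18 that was not called (SE 0.12, adjusted p = 0.308), but was called at 0.31 without QKI7 footprint replicate 1 (adjusted p = 0.0341). Of 8 used RNAs listed for control by upstream reading frames 2 fell, EIF1 and C19orf48 (5.90% of all genes were lower and 11.8% higher). EIF1 is given above as regulated through its start codon context. Whether upstream reading frames had a part in these 2 falls was not tested. C19orf48, annotated by RefSeq as a transcribed pseudogene (-0.79, adjusted p = 0.038), was called in 0 of the 6 fits without 1 library that tested it, those without any input or QKI7 footprint library (adjusted p from 0.0551 to 0.136), nor on deposited TPM or with either replicate block. C19orf48 was also not among the genes tested when both minima were required in each construct. Of 10 used ATF4 targets NUPR1 and SLC7A5 rose and ASNS fell. ASNS, asparagine synthetase (chr7:97851677-97928441), had footprints of 135 and 138 against 63.7 and 70.3 at inputs of 119 and 108 against 114 and 118 (change -1.05, SE 0.21, adjusted p = 0.0111), called without any single library; it passed the footprint minimum only through the vector. NUPR1 (0.61, adjusted p = 0.0368) stood only without QKI7 footprint replicate 1, with adjusted p from 0.0507 to 0.128 in the others, and SLC7A5 (0.58, adjusted p = 0.0368), which passed the footprint minimum only through QKI7, was not called without 5 libraries, among them all 4 inputs (0.0752 to 0.144) and vector footprint replicate 1 (0.0605).

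**Figure D4:**
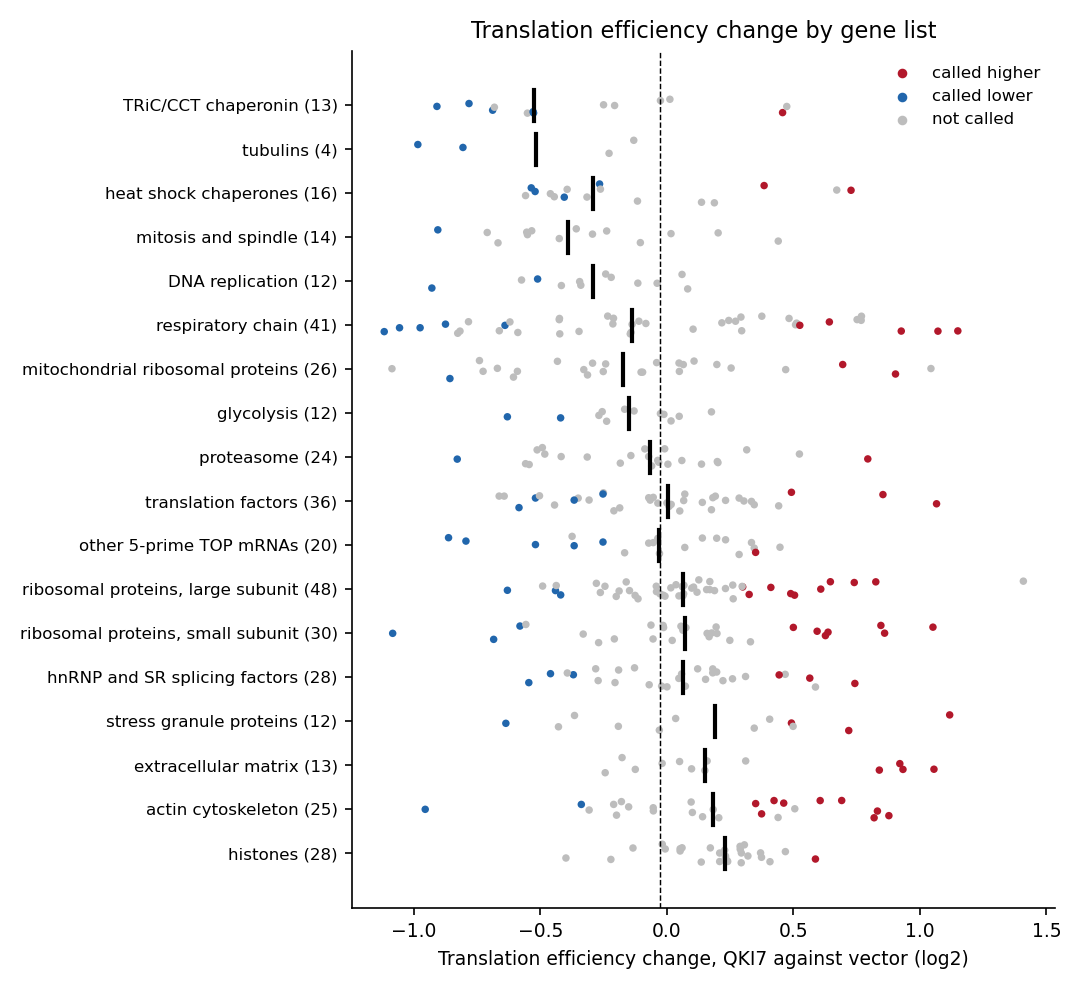
Change of translation efficiency (log2, QKI7 against vector) of each used gene in 18 gene lists, with the number of used genes in brackets; red and blue dots passed the adjusted threshold, bars are list medians and the dashed line is the median of all 1306 genes. The bars of the TRiC/CCT chaperonin (-0.53) and tubulins (-0.52) lie farthest to the left of that line, and the bar of the histones (0.23) farthest to the right.

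Of 41 respiratory chain genes 5 rose (NDUFB7, UQCR10, ATP5I, ATP5E and ATP5J2) and 5 fell (NDUFB9, ATP5B, NDUFV2, ATP5H and CYCS), against 11.8% and 5.90% of all genes. On deposited TPM 2 were higher and 12 lower, against 75 higher and 297 lower of all 1306 genes in that fit. UQCR10, of complex III (chr22:29767369-29770413), had inputs of 139 and 124 in vector and 65.1 and 65.5 in QKI7 with footprints of 443 and 450.3 against 479 and 460.4 (change 1.07, SE 0.16, adjusted p = 0.00263), and was called without any single library. NDUFB7, of complex I, changed by 1.15 (adjusted p = 0.0252) and was not called without vector input replicate 1 (0.0989), vector footprint replicate 1 (0.0518), QKI7 input replicate 1 (0.0854) or QKI7 footprint replicate 1 (0.0703). Without vector input replicate 1 the counts of respiratory chain genes were 1 higher and 1 lower, the higher count was 2 without vector footprint replicate 1 and 3 without QKI7 input replicate 2 or QKI7 footprint replicate 1, and the lower count was 2 or 3 without any other library but QKI7 footprint replicate 2. Of 26 mitochondrial ribosomal proteins 2 rose and 1 fell, with a median of -0.17 (2 and 5 on deposited TPM), and none of the 3 calls stood in more than 2 of the 8 fits that left out a library (adjusted p up to 0.144 otherwise).

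The 14 used genes of mitosis and the spindle had a median change of 0.416 in inputs, where 6 rose and 1 fell (4.36% and 12.5% of all genes). Their median in translation efficiency was -0.39, where 1 fell (5.90% of all genes). Lower calls numbered 11 on deposited TPM, 5 with sums without QKI and 0 with median of ratios. Over all 1306 genes they numbered 297, 165 and 60 in the same order. Relative to the median of all genes in the same fit, the list median was -0.37 in the main fit. It was -0.27, -0.37 and -0.37 in those settings. The gene called, UBE2C, which supplies ubiquitin to the anaphase-promoting complex, had inputs of 103 and 105 against 175 and 165 and footprints of 263 and 188 against 169.8 and 219.6. The footprint groups overlapped, and its call (change -0.91, SE 0.26, adjusted p = 0.0473) was lost without either vector input library, vector footprint replicate 1, either QKI7 input library or QKI7 footprint replicate 1 (adjusted p 0.092 to 0.13). The 12 DNA replication genes had a median of -0.29, with RRM1 and IMPDH2 lower. RRM1, the large subunit of ribonucleotide reductase, changed by -0.93 (adjusted p = 0.0205), but not without vector input replicate 1 (0.0731), QKI7 input replicate 1 (0.099) or QKI7 input replicate 2 (0.0531). IMPDH2, of guanine nucleotide synthesis (-0.51, adjusted p = 0.0353), was called only without vector footprint replicate 2 or QKI7 footprint replicate 1 (adjusted p from 0.0536 to 0.131 in the other such fits), and the list held 1 lower call with median of ratios and 5 with sums without QKI. HMGCS1, an enzyme of cholesterol synthesis, had inputs of 190.3 and 217 against 342 and 328 with footprints of 121 and 129.8 against 122 and 105 (change -0.86, adjusted p = 0.0152), lost without vector input replicate 1 (0.068), QKI7 input replicate 1 (0.0717) or QKI7 input replicate 2 (0.0523).

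Of 12 glycolysis genes 0 rose and 2 fell at the adjusted threshold, or 6 fell on deposited TPM and 4 with sums without QKI. The shares over all genes in the main fit, for this list and those that follow, were 11.8% higher and 5.90% lower. Over all genes, deposited TPM gave 75 higher and 297 lower, sums without QKI 122 and 165, and median of ratios 182 and 60. PGK1, a glycolytic kinase (chrX:78104248-78129295), had inputs of 188 and 183 against 274 and 275 with footprints of 992 and 1030.3 against 952 and 980.5 (change -0.63, SE 0.11, adjusted p = 0.00474). Of 24 proteasome genes PSMD2, of the regulatory particle, rose (0.79, adjusted p = 0.00515) and PSMA4, of the catalytic core, fell (-0.83, adjusted p = 0.00538), or 1 rose and 5 fell on deposited TPM. PSMD2 had inputs of 975 and 967 against 623 and 650.1, and PSMA4 had inputs of 95.4 and 83.5 against 131 and 123, so the RNA of each moved opposite to its translation efficiency. These 3 calls stood without any single library. TPI1 was the other glycolytic gene called (-0.42), and was lost in 5 such fits: without vector input replicate 2, vector footprint replicate 2, either QKI7 input library or QKI7 footprint replicate 1 (adjusted p 0.0794 to 0.113). Of 12 chaperones of the endoplasmic reticulum P4HB and HSPA5 rose and DNAJB11 and PDIA6 fell, at a median of -0.05; the counts were 0 higher and 3 lower on deposited TPM and 3 and 0 with median of ratios. Without vector input replicate 1, vector input replicate 2 or QKI7 input replicate 1 none of these 4 genes was called (adjusted p from 0.0515 to 0.142). P4HB was called in the other 5 fits without 1 library, PDIA6 in 2 of 8, and HSPA5 and DNAJB11 in 1 of 8. BAX was the call among 7 p53 targets and JUND that among 9 immediate early genes, both higher. BAX (0.59, adjusted p = 0.0417) was called only without QKI7 footprint replicate 2 among the fits that left out a library (adjusted p from 0.0658 to 0.144 in the others), and not on deposited TPM or with sums without QKI. None of the 20 NF-kappaB pathway genes was used. None of 11 aminoacyl-tRNA synthetases was called, at a median of -0.23.

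Among nuclear RNA-binding proteins, HNRNPD, which binds AU-rich elements, had footprints of 260.1 and 227 against 414 and 409 at inputs of 1103 and 1189 against 1171 and 1145 (change 0.74, SE 0.12, adjusted p = 0.00439), a call not made on deposited TPM (0.30, adjusted p = 0.0735). HNRNPC and HNRNPH1 changed by -0.55 (adjusted p = 0.0142) and -0.46 (adjusted p = 0.0121). Both were not called without vector input replicate 1 (0.0596 and 0.0503), HNRNPC also without QKI7 input replicate 2 (0.052) and HNRNPH1 without QKI7 input replicate 1 (0.0558). In all, 3 of 28 hnRNP and SR genes rose and 3 fell (11.8% and 5.90% of all genes), or 0 and 5 on deposited TPM and 6 and 3 among protein-coding genes. Over all genes these settings gave 75 and 297, and 228 and 50. HNRNPUL1, another of the higher genes (0.56, adjusted p = 0.0341), was called only without vector footprint replicate 1 or QKI7 footprint replicate 2 among the fits that left out a library (adjusted p from 0.0582 to 0.127 in the others). Of 28 histone genes 25 had changes above the median of all genes but 1 passed the test, HIST1H1C (now H1-2), with footprints of 2651 and 2486 against 3135 and 3110.1 and a change of 0.59 (SE 0.12, adjusted p = 0.0109). The histone median of 0.23 was -0.03 on deposited TPM. Relative to the median of all genes in the same fit, these medians were 0.26 and 0.14. Several histone genes have identical coding copies, and reads may be split among them.

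The Hippo pathway, a kinase cascade that restrains the coactivator YAP1 and its DNA-binding partners of the TEAD family, was followed mainly through target genes. Of 23 pathway genes FRMD6, an upstream FERM domain protein, was the member used, with footprints of 216 and 183 in vector and 211 and 221 in QKI7, and its change of 0.26 was not called (adjusted p = 0.227). YAP1 and TEAD1 were too low in footprints to be used: YAP1 had deposited footprint values of 0.12 and 0.13 TPM in vector and 0.18 and 0.14 TPM in QKI7, and TEAD1 0.1 and 0.09 against 0.16 and 0.17 TPM. Of 5 used YAP targets AXL and ANKRD1 rose (11.8% of all genes were higher). AXL, a receptor tyrosine kinase, had footprints of 100.3 and 93.8 against 133 and 132 (change 0.64, SE 0.12, adjusted p = 0.00752), and ANKRD1, an ankyrin repeat protein, had inputs of 7217 and 7873 against 5559 and 5316 with footprints of 2403 and 2420.1 against 2473 and 2708 (change 0.57, SE 0.09, adjusted p = 0.00425). Neither was called on deposited TPM (0.24, adjusted p = 0.108, and 0.33, adjusted p = 0.0584). METTL3, the methyltransferase that writes N6-methyladenosine, was not used either, at 0.14 and 0.19 TPM in vector and 0.08 and 0.08 TPM in QKI7 footprints. Of 14 listed QKI target RNAs 4 were used, and ACTN1, which crosslinks actin, was called (change 0.42, adjusted p = 0.0144), but not without vector input replicate 2 (0.0608), QKI7 input replicate 1 (0.0514) or QKI7 input replicate 2 (0.0534).

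Some calls were in RNAs that are not translated, chosen here after their values were seen. MALAT1, a nuclear long non-coding RNA (chr11:65497738-65506516), had inputs of 29487 and 30445 in vector and 45630.0 and 42903 in QKI7, and fragments in the footprint libraries of 246 and 229.8 in vector and 589 and 539 in QKI7. The ratio of the types rose by 0.68 (SE 0.09, adjusted p = 0.00192), by 0.10 on deposited TPM, where it was not called (adjusted p = 0.516), and by 1.92 after quantile normalization (adjusted p = 4.75e-06). VTRNA1-1, a vault RNA, held 5.8% and 5.91% of the rescaled vector footprints and 9.91% and 8.97% of the QKI7 footprints, with a change of 0.94 (adjusted p = 0.000602) that was 0.17 after quantile normalization (adjusted p = 0.118). RMRP, the RNA of RNase MRP, changed by 0.57 (adjusted p = 0.0119), by 0.33 on deposited TPM (adjusted p = 0.0512) and by 1.23 after quantile normalization (adjusted p = 4.75e-06). For these RNAs the ratio is not a translation efficiency, and what the fragments are was not tested.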

How the data were processed

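The authors deposited 1 table of TPM with 2 decimals for 8 libraries of single 51 nt reads, made with STAR and RSEM 1.2.31 on GRCh38 per the submitters' processing notes; settings and strand are not given in the sources used here. Of 24367 rows left after dropping the RNA classes, 16533 were under the input minimum and 6528 under the footprint minimum only. The genes closest to the footprint minimum were BCLAF1, CKLF and HSPA13 (0.500 TPM) inside and ADSL and KIF20B (0.497 TPM) outside. The 1306 rows were rescaled and fitted as log2(value + 1) with limma 3.58.1 in R 4.3.3 (4 group means, interaction contrast, eBayes with a variance trend, 4 residual degrees of freedom, two-sided, Benjamini-Hochberg over all rows, threshold 0.05); small values are understated by the pseudocount. The fit was tested on simulated data. Members and the 39 gene lists were chosen with earlier results of these data known. Named are QKI, the 15 largest called changes per direction without overlap between constructs, up to 4 called members of each list, and ATF4, PPP1R15A, G3BP1, YAP1, TEAD1, METTL3 and DICER1; other list members are given as names or were named after their values were seen. Coordinates, RNA classes and start sequences are RefSeq's (GRCh38.p14), matched by symbol.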

Additional observations from a re-analysis of the deposited data

How the results depend on the processing

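Per library type, the rescaling and the filter moved the counts of calls most. The setting on deposited TPM also changed the weight of the 1 added before taking logs. Translation efficiency gave 154 genes higher and 77 lower, and 75 and 297 on deposited TPM, 97 and 34 with no filter (16563 genes tested, of which 42 and 19 were called in both), 57 and 29 with a stricter filter (254 tested), 254 higher with a looser filter, and 174, 165 and 50 lower with sums over all rows, sums without QKI and protein-coding genes without histones. Input RNA gave 57 higher and 163 lower, and 177 higher on deposited TPM, 34 and 256 with sums over all rows, 113 and 97 with sums without QKI, 4 and 90 with no filter, 19 and 107 with a stricter filter, and 121 higher with weights by library type. Footprints gave 177 higher and 263 lower, and 95 higher on deposited TPM, 111 and 577 with sums over all rows, 917 and 702 with no filter, 30 and 95 with a stricter filter, 500 higher with a looser filter, and 172, 161 and 154 lower with median of ratios, protein-coding genes without histones and weights by library type. The cause was not tested, apart from the number of genes tested in the filters. Without 1 library, translation efficiency gave 89 to 161 higher and 34 to 106 lower, inputs 14 to 63 and 93 to 178, and footprints 138 to 171 and 163 to 249.

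With a replicate block for the culture (construct and number) translation efficiency gave 133 higher and 54 lower, and with a replicate block for the number 142 and 69. Libraries of the same number deviated from their group means with correlations of -0.118 to 0.040, which does not pair them; whether any came from one culture is not known. The sign changed for PPP1R15A (-0.01 on deposited TPM) and ATF4 (0.02 after quantile normalization and 0.06 with protein-coding genes), values that were not called. Of 101 named genes called, 54 were called in every fit without 1 library and 35 under every other alternative that tested them; with no filter many lost the call. TPM keep no depth, and 2 libraries a group limit the precision.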
